A study of Mus musculus with 58 samples.

Results

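Mice given traumatic brain injury (TBI) with the same device setting differed in the RNA level of glial response genes. The injured mice alone were used here to ask which other genes followed that gradation. The cause of the gradation was not tested. The members were the 29 TBI mice among the 58 mice of the series. Each mouse received an injury score, the mean of log2(CPM + 1) of Gfap, Vim, C4b and Cd68 minus the mean of its genotype, where CPM is counts per 1000000 counts of the library. Every other gene was then related to this score within the TBI mice, so that no contrast of TBI against sham entered the relation.

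The TBI mice were selected on the treatment label and ordered by the measured values of the 4 score genes, which are therefore given as a description only.

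All mice were on the C57BL/6 background and carried human APOE3 (E3) or APOE4 (E4) in place of mouse Apoe by targeted replacement, with both copies of Abca1 (Abca1+/+) or 1 copy (Abca1+/-). At 3 months of age, a craniotomy of 4.5 mm was made under isoflurane over the left parietal cortex, and TBI mice then received 1 controlled cortical impact at a depth of 1.0 mm (3.0 mm tip, 3 m/s, 100 ms dwell). Sham mice had the same anaesthesia and craniotomy without impact, so the craniotomy is shared by every group. On day 14, cortex and hippocampus at the injury site were dissected from a coronal section of 1.5 mm, and RNA from this mixture was sequenced. The TBI mice were 8 E3/Abca1+/+, 6 E3/Abca1+/-, 7 E4/Abca1+/+ and 8 E4/Abca1+/- mice, 14 female and 15 male in all, and the sham groups held 8, 7, 7 and 7 mice. Total counts ranged from 4719044 to 37877346 in TBI mice (median 12737314) and from 4421308 to 28467098 in sham mice, and the table listed 15171 genes. Each column was treated as its own mouse, since each sample title carries a different number. In 0 of 183 comparisons of 2 mice from the same group were the counts the same throughout, which excludes only a copied column.

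After a contusion, astrocytes around the lesion enlarge and fill with the intermediate filaments that Gfap and Vim encode, and microglia and entering macrophages take up debris, which raises the lysosomal membrane protein that Cd68 encodes. C4b encodes a complement component that reactive glia produce. Complement tags synapses and debris for removal, and a scar of astrocytes, macrophages and matrix closes the lesion over the following weeks.

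The score itself spread widely among injured mice. Gfap ran from 739 to 2886 CPM in TBI mice (median 1514), against 216 to 673 CPM in sham mice. Vim ran from 102 to 425 CPM against 22.7 to 84.7, C4b from 119 to 365 against 25.6 to 89.6, and Cd68 from 22.2 to 90.0 against 7.04 to 19.0. The ranges of these 4 genes, which were chosen for the score, did not overlap between TBI and sham mice. How many of all genes separate in this way was not counted. Before centring, the score was 6.92 to 8.81 in TBI mice (median 7.78) and 5.05 to 6.66 in sham mice (median 5.40). The pairwise Pearson correlations of the 4 genes among the 29 TBI mice, centred by genotype, were 0.761 to 0.906, which is a description since these genes chose the score. The counting error of the score was 0.0100 to 0.0365 per TBI mouse.

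By genotype, the uncentred score averaged 7.78 ± 0.39 in E3/Abca1+/+ mice (SD, n = 8) and 7.74 ± 0.29 in E3/Abca1+/- mice (SD, n = 6). It averaged 7.54 ± 0.57 in E4/Abca1+/+ mice (SD, n = 7) and 8.22 ± 0.40 in E4/Abca1+/- mice (SD, n = 8). The E4/Abca1+/- mean was the highest, and the E4/Abca1+/+ mice were the most spread out. The difference between E4/Abca1+/- and E4/Abca1+/+ was 0.68 ± 0.26 (SE), and the ranges of the 4 genotypes are shown in the plot of the score by group. The score after centring ran from −0.63 to 1.00, and both ends were E4/Abca1+/+ TBI mice. The mean centred score of females was above that of males by 0.33 ± 0.14 (SE, n = 14 and 15). This difference was 0.26 in E3/Abca1+/+, 0.51 in E3/Abca1+/-, 0.74 in E4/Abca1+/+ and −0.10 in E4/Abca1+/- mice. No pair of genotypes differed at an adjusted p under 0.05. The lowest adjusted p was 0.0873, for E4/Abca1+/- against E4/Abca1+/+ among others (exact permutation test, unadjusted p = 0.0224 for that pair). The difference by sex had a permutation p of 0.0368, and of 0.0608 without Cd68 in the score.

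**Figure D1:**
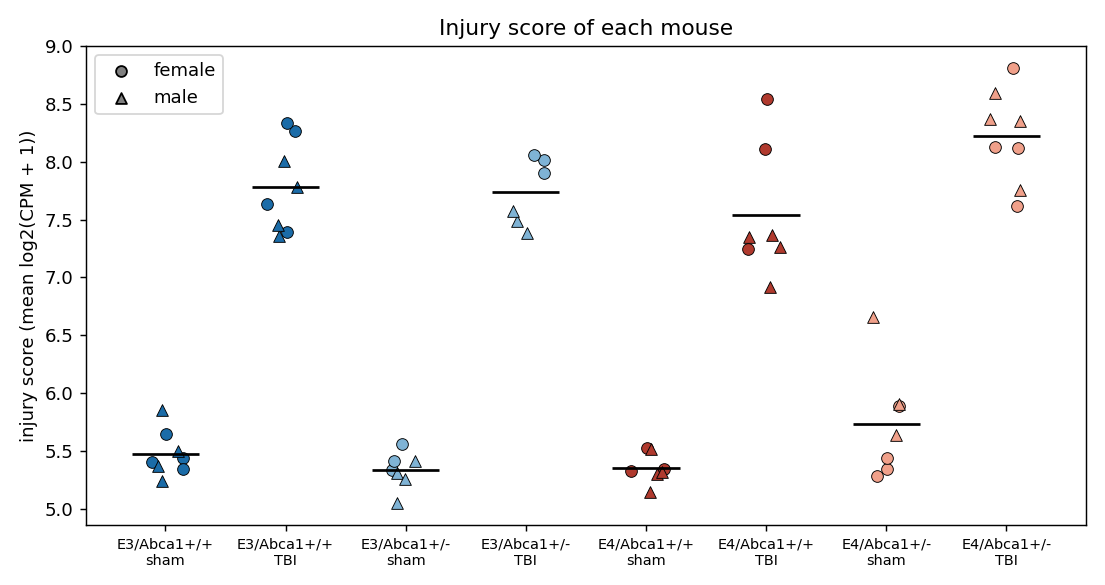
Injury score before centring (mean log2(CPM + 1) of Gfap, Vim, C4b and Cd68, y axis) of each of the 58 mice by genotype and injury, with circles for females, triangles for males and a bar at each group mean. TBI mice lie between 6.92 and 8.81 and sham mice between 5.05 and 6.66, so the 2 sets do not overlap, and 1 E4/Abca1+/- sham mouse stands above the other sham mice.

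Of 7 measures of the libraries, none was related to the score at an adjusted p under 0.05 among the 29 TBI mice (Pearson r centred by genotype, permutation within genotype). Depth was not closely tied to it (log2 of total counts, r = −0.18, permutation p = 0.377). The closest relations were with the mean of 13 choroid plexus and meningeal genes (r = 0.50, rho = 0.50, permutation p = 0.00805 and 0.0092, adjusted p = 0.0518 and 0.0644), the mean of 20 cortical layer genes (r = −0.50, rho = −0.46, permutation p = 0.0148 and 0.0231, adjusted p = 0.0518 and 0.0704) and the share of mitochondrially encoded counts (r = −0.39, rho = −0.41, permutation p = 0.0297 and 0.0302, adjusted p = 0.0692 and 0.0704). Without the 2 mice farthest from the median score, r was 0.32, −0.36 and −0.43 for these 3 measures. Within genotypes, the choroid plexus relation was 0.69, −0.11, 0.67 and 0.59 in E3/Abca1+/+, E3/Abca1+/-, E4/Abca1+/+ and E4/Abca1+/- mice, and the cortical layer relation −0.32, −0.32, −0.89 and −0.27. Of these measures, only total counts, the hippocampal mean and the cortical layer mean were carried as covariates in fits of the slopes below. No fit carried the choroid plexus and meningeal mean or the share of mitochondrially encoded counts. The part of dissection and of mitochondrial RNA in the slopes was not otherwise tested.

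The counts of 3418 of 15134 genes (22.6%) changed with the score among the TBI mice (edgeR's quasi-likelihood test with genotype in the model, adjusted p under 0.05), 1947 higher (12.9%) and 1471 lower (9.72%), and 5149 (34.0%) had an unadjusted p under 0.05. A slope is the log2 change in a gene's count per unit of score, so that a gene with a slope of 1 kept pace with the score genes. The median slope of all genes tested was −0.01. The 1947 genes that rose had a median slope of 0.49, with a slope of at least 1 in 259 genes and of at least 2 in 39. The genes that fell had a median slope of −0.19. The steepest of them with a mean of at least 1 CPM were scarce transcripts, such as the transcription factor gene Ovol2 (−0.88 ± 0.20, median 3.19 CPM) and the cystatin gene Cst6 (−0.90 ± 0.23, median 2.50 CPM). The score and the other genes were counted in the same libraries, and in tissue RNA fewer cells of a type cannot be told apart from less RNA per cell. Without the highest-scoring mouse (E4/Abca1+/+ TBI replicate 6), 1647 genes were called higher and 877 lower. With sex as a covariate, the counts were 1556 and 1080.

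The promoters of a few genes are shown, from either end of the gradation: Mmp3, a matrix protease with a steep rise, Lcn2, an iron-siderophore carrier and a classical marker of reactive astrocytes, Fcgr4, an activating Fc receptor of myeloid cells, and Cds1, an enzyme of phosphatidylinositol synthesis that fell. The 250 bases before the annotated start are from RefSeq (GRCm38.p6), read in the direction of the gene, and capitals mark every match to 6 short motifs searched on both strands: TGANTCA (AP-1), TTGCNNAA (C/EBP), GAGGAAGT (PU.1), a 10-base interferon response motif, TTCNNNGAA (STAT) and TGACGTCA (CRE).
Mmp3 (chr9:7445572-7445821, plus strand): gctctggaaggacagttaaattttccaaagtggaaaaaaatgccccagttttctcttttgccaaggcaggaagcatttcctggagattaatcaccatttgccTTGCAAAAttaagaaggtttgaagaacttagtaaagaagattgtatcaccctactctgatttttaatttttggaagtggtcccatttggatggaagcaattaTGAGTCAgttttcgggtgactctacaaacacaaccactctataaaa
Lcn2 (chr2:32387740-32387989, minus strand): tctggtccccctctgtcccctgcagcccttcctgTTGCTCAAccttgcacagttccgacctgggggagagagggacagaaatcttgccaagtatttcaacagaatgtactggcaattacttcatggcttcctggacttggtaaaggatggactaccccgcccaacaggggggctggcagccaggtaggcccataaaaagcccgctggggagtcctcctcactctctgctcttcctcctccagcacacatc
Fcgr4 (chr1:171018676-171018925, plus strand): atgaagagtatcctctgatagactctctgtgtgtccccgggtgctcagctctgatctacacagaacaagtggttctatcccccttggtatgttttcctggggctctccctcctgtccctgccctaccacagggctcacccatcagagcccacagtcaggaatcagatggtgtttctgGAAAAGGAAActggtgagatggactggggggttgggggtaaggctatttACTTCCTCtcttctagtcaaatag
Cds1 (chr5:101764880-101765129, plus strand): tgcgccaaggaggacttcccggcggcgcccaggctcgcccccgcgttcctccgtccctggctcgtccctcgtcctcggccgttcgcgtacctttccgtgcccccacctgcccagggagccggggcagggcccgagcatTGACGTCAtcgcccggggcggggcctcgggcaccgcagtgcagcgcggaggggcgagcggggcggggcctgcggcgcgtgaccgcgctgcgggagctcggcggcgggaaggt

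Mmp3 holds an AP-1 match 46 to 40 bases before its start and a C/EBP match at 148 to 141. Lcn2 holds a C/EBP match at 216 to 209. Fcgr4 holds an interferon response match at 73 to 64 and, on the reverse strand, a PU.1 match at 24 to 17, and Cds1 holds a CRE match at 112 to 105. No pair of these matches overlaps. Over the 11730 genes tested that had a promoter in the RefSeq table, the AP-1 letters were in 4.23% of promoters of all genes, 7.05% of those of genes that rose and 3.07% of those of genes that fell. The PU.1 letters were in 2.20%, 3.49% and 1.49%, the interferon response letters in 2.53%, 3.95% and 2.19%, and the C/EBP letters in 7.37%, 10.3% and 6.84%. The CRE letters ran the other way, in 2.69% of all, 1.03% of rising and 4.47% of falling genes, and the STAT letters differed little (5.84%, 6.14% and 4.73%). These shares describe letters in a window and no test was made of them.

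Of 24 reactive astrocyte genes tested, 22 rose and 0 fell (12.9% of all genes rose), with a median slope of 0.97. Lcn2 had 15.3 to 325 CPM in TBI mice (median 60.9), from 15.3 to 310 (median 26.8) in E4/Abca1+/+ mice, from 46.0 to 325 (median 113) in E4/Abca1+/-, from 19.3 to 166 (median 56.4) in E3/Abca1+/+ and from 25.4 to 146 (median 76.4) in E3/Abca1+/- mice. Its 4 genotypes overlapped, and its spread within a genotype was larger than the distance between their medians. The slope of Lcn2 was 2.64 ± 0.20 (SE; edgeR adjusted p = 4.9e-11). Steep slopes were also found for Steap4, a metalloreductase (2.57 ± 0.20), Timp1, an inhibitor of matrix proteases (2.27 ± 0.20), Cp, the ferroxidase ceruloplasmin (1.75 ± 0.17), and Serpina3n, a secreted protease inhibitor (1.41 ± 0.11). S1pr3, a receptor for sphingosine 1-phosphate, rose by 1.27 ± 0.09 and Osmr, the oncostatin M receptor, by 1.09 ± 0.09. Stat3, the transcription factor downstream of Osmr, rose by 0.46 ± 0.05.

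Of 20 genes of homeostatic astrocytes, 10 rose and 0 fell (12.9% of all genes rose), with a median slope of 0.18. The water channel gene Aqp4 rose by 0.69 ± 0.07, Sox9 by 0.45 ± 0.09, the glutamate transporter gene Slc1a3 by 0.40 ± 0.06 and the gap junction gene Gja1 by 0.34 ± 0.07. The glutamate transporter gene Slc1a2 did not pass, with a slope of −0.02 ± 0.07. The general astrocyte marker Aldh1l1 rose by 0.19 ± 0.06.

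Slc43a3, a purine nucleobase transporter, and A2m had the smallest p-values of all genes that rose. Slc43a3 ran from 2.89 to 30.0 CPM in TBI mice (median 9.29) and its slope was 2.02 ± 0.12 (edgeR adjusted p = 9.13e-13). The protease inhibitor gene A2m ran from 29.1 to 349 CPM (median 78.5) and had a slope of 2.18 ± 0.13 (edgeR adjusted p = 9.13e-13). The sham mice reached 3.05 CPM for Slc43a3, inside the TBI range, and 27.9 CPM for A2m, below it. Lgals3 (galectin-3) rose by 1.99 ± 0.12, Lyz2 (lysozyme) by 2.26 ± 0.15, Lilrb4a, an inhibitory receptor of myeloid cells, by 1.65 ± 0.12, Pdpn (podoplanin) by 0.95 ± 0.06, the ferritin light chain gene Ftl1 by 0.74 ± 0.05, the tetraspanin gene Cd63 by 0.78 ± 0.06 and the actin-binding Cnn3 by 0.72 ± 0.05.

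**Figure D2:**
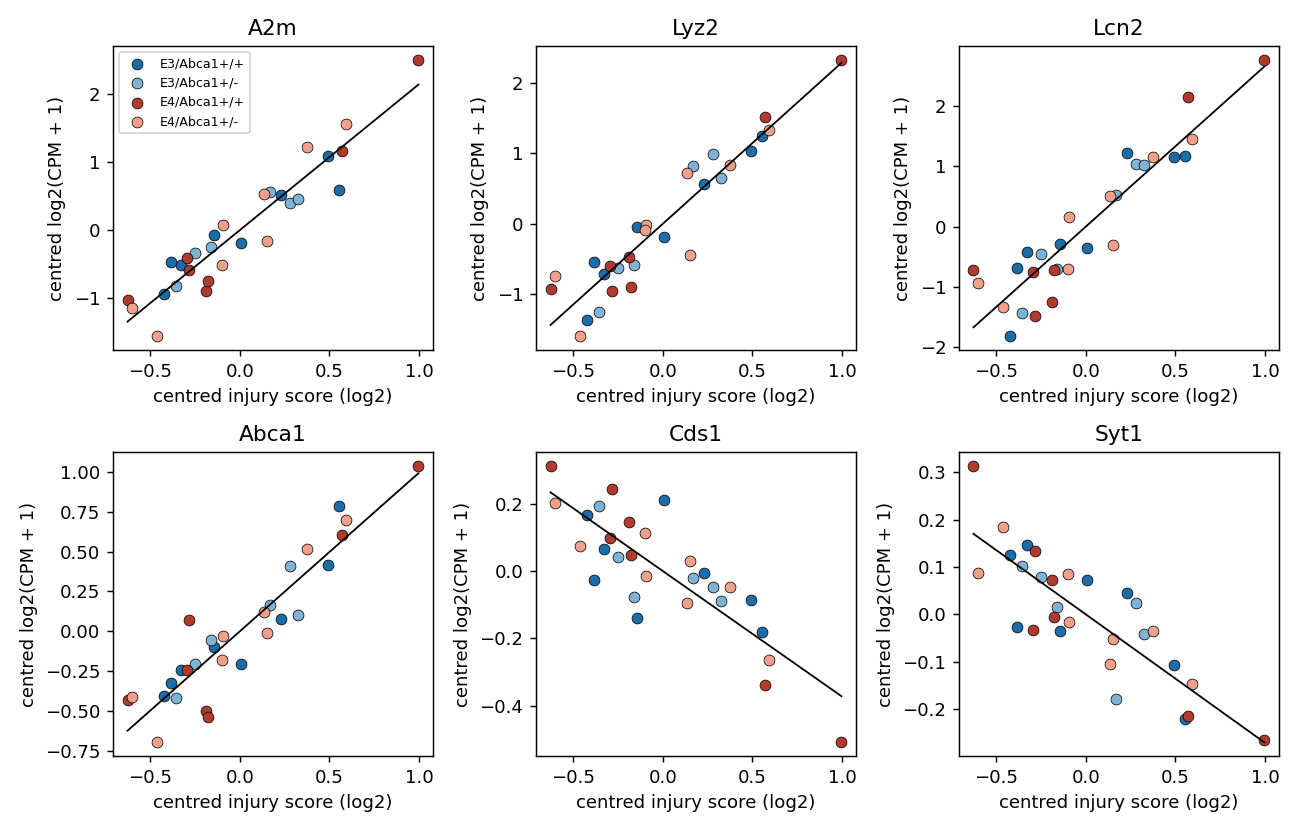
Log2(CPM + 1) of 6 genes against the injury score in the 29 TBI mice, both centred by genotype, with 1 colour per genotype and a straight line fitted by least squares for display. A2m, Lyz2, Lcn2 and Abca1 climb with the score in all 4 genotypes, and Cds1 and Syt1 decline over a much narrower range.

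Of 25 disease-associated microglia genes, 23 rose and 1 fell (median slope 0.90, 12.9% of all genes rose). Of 16 homeostatic microglia genes, 11 rose and 0 fell (median 0.32). Among the disease-associated genes, Gpnmb, a lysosomal glycoprotein, rose by 2.34 ± 0.23, Spp1 (osteopontin) by 1.84 ± 0.14, Cst7 (cystatin F) by 1.58 ± 0.19, Clec7a (dectin-1) by 1.43 ± 0.16 and the receptor gene Trem2 by 0.93 ± 0.09, together with its adaptor gene Tyrobp by 1.04 ± 0.09. The member that fell was Ank, a pyrophosphate transporter that neurons also express, with a slope of −0.11 ± 0.03. Lyz2 ran from 49.3 to 645 CPM in TBI mice (median 152), with the 2 highest values in E4/Abca1+/- replicate 3 and E4/Abca1+/+ replicate 6, the mice with the highest centred scores. Among homeostatic genes, Csf1r rose by 0.42 ± 0.06, Cx3cr1 by 0.39 ± 0.06 and Tmem119 by 0.31 ± 0.07, and the purine receptor gene P2ry12 did not pass (0.05 ± 0.06).

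Complement and lysosomal genes rose together with these. Of 18 complement genes, 13 rose and 0 fell (median 0.89, 12.9% of all genes rose). C3, the central component, ran from 34.7 to 502 CPM in TBI mice (median 103) and rose by 2.37 ± 0.18. The C1q chain genes C1qa, C1qb and C1qc rose by 0.87 ± 0.08, 0.92 ± 0.07 and 0.91 ± 0.08, close to the pace of the score, the C1 protease genes C1s1 and C1ra by 1.70 ± 0.17 and 1.60 ± 0.16, and Serping1, which inhibits them, by 1.24 ± 0.12. Of 28 lysosomal genes, 23 rose and 0 fell (median 0.56), from Atp6v0d2, a proton pump subunit of specialised macrophages (2.53 ± 0.32), through the cathepsin genes Ctss (0.70 ± 0.09) and Ctsb (0.63 ± 0.05), to Npc1, the cholesterol exporter of lysosomes (0.19 ± 0.06). All 5 Fc receptor genes rose, by 0.60 to 0.93. Fcgr4, whose promoter is shown above, had 1.27 to 8.44 CPM in TBI mice (median 2.47) and a slope of 0.73 ± 0.22 (edgeR adjusted p = 0.0161).

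Of 23 interferon-stimulated genes, 23 were higher in TBI than in sham mice (29% of all genes were higher, edgeR over 58 mice). With the score, 13 rose among TBI mice (median slope 0.56, 12.9% of all genes rose), 19 by limma and 6 with libraries thinned to the lowest total. Trim30a rose by 1.02 ± 0.15, Bst2 by 0.95 ± 0.15 and Ifitm3 by 0.80 ± 0.10. Of 11 genes of MHC class I presentation, 10 were higher after TBI and 6 rose with the score, 10 without E4/Abca1+/- TBI replicate 6, 9 by limma and 4 with thinned libraries, among them H2-K1 (0.69 ± 0.13) and Tap2 (0.52 ± 0.09). Of 7 genes of MHC class II presentation, 7 were higher after TBI (median log2 fold change 2.51) and 0 passed for the score, with slopes from 0.24 to 0.82. Cd74, the invariant chain, had 193 CPM in E4/Abca1+/- TBI replicate 6, while the other 28 TBI mice had 11.3 to 61.2 CPM. Without that mouse, 5 of the 7 class II genes rose and the median slope was 1.35, and 4 rose with it by limma and 3 with sex as a covariate. The slope of Cd74 was 0.62 ± 0.36 (edgeR adjusted p = 0.227) with the mouse and 1.35 (edgeR adjusted p = 1.5e-06) without it.

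The same mouse stood apart for immunoglobulin genes. Igkc, the kappa light chain, had 250 CPM in E4/Abca1+/- TBI replicate 6 and 1.77 to 33.0 CPM in the other TBI mice, and Jchain, which joins immunoglobulin subunits, had 40.4 CPM there. Its centred score of −0.46 was among the 3 lowest. Ighg2c had the lowest slope of all genes called (−3.40 ± 0.96, edgeR adjusted p = 0.0100), on 66.4 CPM in this mouse and a median of 1.35 CPM. Without the mouse the slope was −0.71 (edgeR adjusted p = 0.25), and the slope of Igkc went from −0.83 to 1.18 with neither value past the threshold. Of 4 T and B lymphocyte genes in the table, 0 rose with the score, and 2 did without this mouse or without E3/Abca1+/+ TBI replicate 8.

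**Figure D3:**
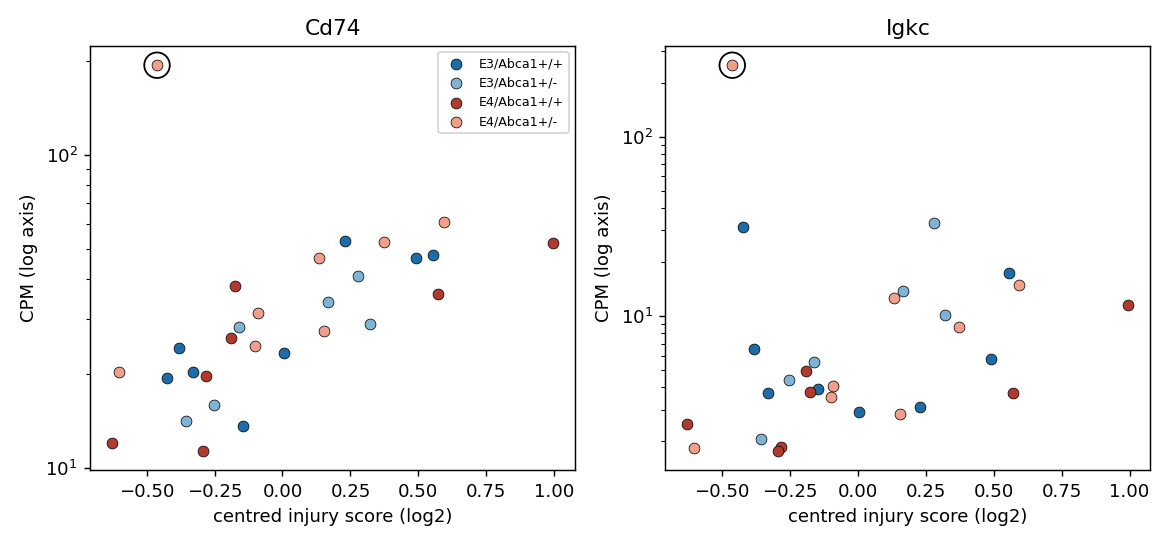
CPM of Cd74 and Igkc (log axes) against the centred injury score in the 29 TBI mice, with 1 colour per genotype and a ring around E4/Abca1+/- TBI replicate 6. The ringed mouse has 193 CPM of Cd74 and 250 CPM of Igkc at a score of −0.46, apart from the other 28 mice.

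Genes of macrophages, neutrophils and scar matrix had some of the steepest slopes. Of 14 genes of border and infiltrating macrophages, 11 rose and 0 fell (median 1.13, 12.9% of all genes rose). Ccr2, the chemokine receptor of entering monocytes, rose by 1.84 ± 0.21, Ms4a7 by 1.93 ± 0.19 and the oxidase gene Cybb by 1.95 ± 0.18. All 14 slopes were above 0, and 3 genes did not pass, among them the resident border macrophage genes Cd163 (0.43 ± 0.29) and Lyve1 (0.59 ± 0.34). A difference between entering and resident cells was not tested. The neutrophil genes in the table all rose, S100a8 by 2.55 ± 0.39, S100a9 by 2.98 ± 0.40 and Csf3r, which microglia also express, by 0.71 ± 0.10. S100a9 remained rare, with 0 to 9.86 CPM in TBI mice (median 1.24). Mmp3 ran from 0 to 11.5 CPM (median 1.22) and had the steepest slope of all genes called with a mean of at least 1 CPM, 3.93 ± 0.51 (edgeR adjusted p = 8.55e-07). Slfn4 (3.38 ± 0.48), the lectin receptor gene Clec4d (2.99 ± 0.42), Acod1, which makes itaconate in activated macrophages (2.96 ± 0.46), and the chemokine gene Cxcl5 (2.64 ± 0.43) were likewise steep, and the first 3 had medians under 1 CPM. Of 30 scar matrix and fibroblast genes, 17 rose and 0 fell (median 0.58), such as Tgfbi (1.66 ± 0.15), Thbs1 (1.51 ± 0.18), Col3a1 (1.31 ± 0.33) and Col1a1 (0.86 ± 0.30). Lum, a proteoglycan of fibroblasts, did not pass (0.43 ± 0.23). Of 17 cell cycle genes, 7 rose, led by Top2a (1.08 ± 0.13) and Mki67 (0.89 ± 0.16), but only 3 did without the 2 mice farthest from the median score.

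Other steep genes belong to the choroid plexus. Tmem72 (3.22 ± 1.07) and the coagulation factor gene F5 (2.70 ± 0.87) passed. Of 13 choroid plexus and meningeal genes, 3 rose (12.9% of all genes rose), Folr1, Prlr and Enpp2, and Ttr had 3.66 ± 1.72 (edgeR adjusted p = 0.129). Ttr, the thyroid hormone carrier of the choroid plexus, had 0 to 1928 CPM in TBI mice (median 5.86) and 0 to 1236 CPM in sham mice (median 4.50), so both groups held mice with very high and very low values. With sex as a covariate, or without E4/Abca1+/+ TBI replicate 6, 0 of the 13 genes passed, and Tmem72 and F5 did not pass either. The count was 8 without E3/Abca1+/- TBI replicate 3 and moved to between 1 and 7 without any 1 of 12 other TBI mice.

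Genes of cholesterol export rose with the score, and most genes of sterol synthesis did not pass. Of 19 genes of cholesterol efflux and its nuclear receptors, 13 rose and 0 fell (median 0.24, 12.9% of all genes rose). Abca1, the exporter that loads cholesterol onto apolipoprotein E and of which the Abca1+/- mice carry 1 copy, rose by 0.98 ± 0.07 (edgeR adjusted p = 6.1e-11). It had 123 to 283 CPM (median 147) in E3/Abca1+/+ TBI mice, 76.1 to 136 (median 104) in E3/Abca1+/-, 98.7 to 296 (median 121) in E4/Abca1+/+ and 81.0 to 214 (median 130) in E4/Abca1+/-. The ranges of all 4 genotypes overlapped, and how many of all genes overlap in this way was not counted. The slope within each genotype was 0.99 ± 0.12, 0.90 ± 0.17, 0.95 ± 0.13 and 1.05 ± 0.13 in the same order. It was past the threshold when fitted alone in all but E3/Abca1+/-. The CPM values of Abca1 were not adjusted for the score, which averaged 8.22 in E4/Abca1+/- and 7.54 in E4/Abca1+/+ TBI mice. They therefore do not give the effect of the lost copy. Apoc1 rose by 1.35 ± 0.21, the lipid droplet gene Plin2 by 1.34 ± 0.10, the LXR-alpha gene Nr1h3 by 0.51 ± 0.13, and Apoe by 0.24 ± 0.06, the last counted in mice whose own Apoe is replaced by a human one. Of 22 sterol synthesis genes, 4 fell (9.72% of all genes fell), 0 rose and 20 were lower in TBI than in sham mice (24.3% of all genes were lower). Fdft1, squalene synthase, fell by 0.26 ± 0.05 on the log2 scale, and Srebf2, the master regulator of the pathway, by 0.17 ± 0.04. Iron and heme handling genes, a list that also holds Lcn2, Cp and Steap4, rose in 11 of 15 cases (0 fell, median 0.51), including the heme oxygenase gene Hmox1 (1.05 ± 0.11) and the iron exporter gene Slc40a1 (0.46 ± 0.10).

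Of 20 pan-neuronal genes, 10 fell and 0 rose (9.72% of all genes fell), with a median slope of −0.16, of 22 genes of synaptic transmission 9 fell (median −0.16), and of 28 potassium channel genes 11 fell (median −0.17). Without E4/Abca1+/+ TBI replicate 6, 6 pan-neuronal genes fell, and without E4/Abca1+/- TBI replicate 3, 7 potassium channel genes. Syt1, the calcium sensor of transmitter release, had 1578 to 2385 CPM in TBI mice (median 1865) and 1918 to 2432 in sham mice (median 2152). The ranges overlapped, and the lowest values were those of TBI mice. Syt1 fell by 0.30 ± 0.04 and Snap25, a vesicle fusion protein, by 0.27 ± 0.06 on the log2 scale. The GABA-A receptor subunit genes Gabrb2 (−0.34 ± 0.05) and Gabra4 (−0.23 ± 0.06) fell as well. Kcnab1, a potassium channel beta subunit, had a slope of −0.34 ± 0.05. The active zone gene Rims2 (−0.26 ± 0.03), the metabotropic glutamate receptor gene Grm7 (−0.27 ± 0.04), the kinesin gene Kif21a (−0.25 ± 0.04), the lipid phosphatase gene Inpp4a (−0.26 ± 0.04) and the myelin glycoprotein gene Omg, which neurons express too (−0.28 ± 0.04), were among the genes that fell with the smallest p, as was Cds1 (−0.40 ± 0.05). Cds1 had 77.9 to 138 CPM in TBI mice (median 98.4) and 126 to 172 in sham mice.

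Of 20 cortical layer genes, 7 fell (median −0.12, 9.72% of all genes fell), among them the projection neuron regulators Fezf2 (−0.45 ± 0.12) and Tbr1 (−0.42 ± 0.09). Of 20 hippocampal genes, 1 fell, Dkk3 (−0.26 ± 0.07). Of 17 interneuron genes, 3 fell, Pvalb of fast-spiking cells by 0.46 ± 0.13, Vip by 0.25 ± 0.08 and Gad1, which makes GABA, by 0.17 ± 0.05. Of 20 immediate early genes, 0 passed for the score although 17 were lower in TBI than in sham mice (24.3% of all genes were lower). The number that rose was 2 without E3/Abca1+/+ TBI replicate 1 or E4/Abca1+/+ TBI replicate 2. Without E4/Abca1+/+ TBI replicate 6, 2 cortical layer and 0 interneuron genes fell, and 4 cortical layer genes fell without E4/Abca1+/+ TBI replicate 3, E4/Abca1+/+ TBI replicate 7 or E4/Abca1+/- TBI replicate 3. Without the 2 mice farthest from the median score, 3 pan-neuronal, 7 synaptic, 6 potassium channel, 2 cortical layer and 0 interneuron genes fell. With the means of the hippocampal and cortical layer genes in the model, 2 pan-neuronal, 6 synaptic and 3 potassium channel genes fell. In that fit 19 of 24 reactive astrocyte genes and 22 of 28 lysosomal genes rose. The added means are of largely neuronal genes, so the fit takes out part of the neuronal change itself and cannot set neuronal against glial lists. Oxidative phosphorylation genes fell in 9 of 22 nuclear cases (median −0.11) and 6 of 13 mitochondrially encoded cases (median −0.17), the latter sharing reads with nuclear copies. The nuclear count was 5 without E4/Abca1+/+ TBI replicate 6 or E4/Abca1+/- TBI replicate 3 and 1 with thinned libraries, and the mitochondrial count was 3 without E3/Abca1+/+ TBI replicate 7 or E4/Abca1+/- TBI replicate 3. Without the 2 mice farthest from the median score both counts were 2. Of the 22 nuclear genes, 13 were lower in TBI than in sham mice, and of the 13 mitochondrially encoded genes 0.

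**Figure D4:**
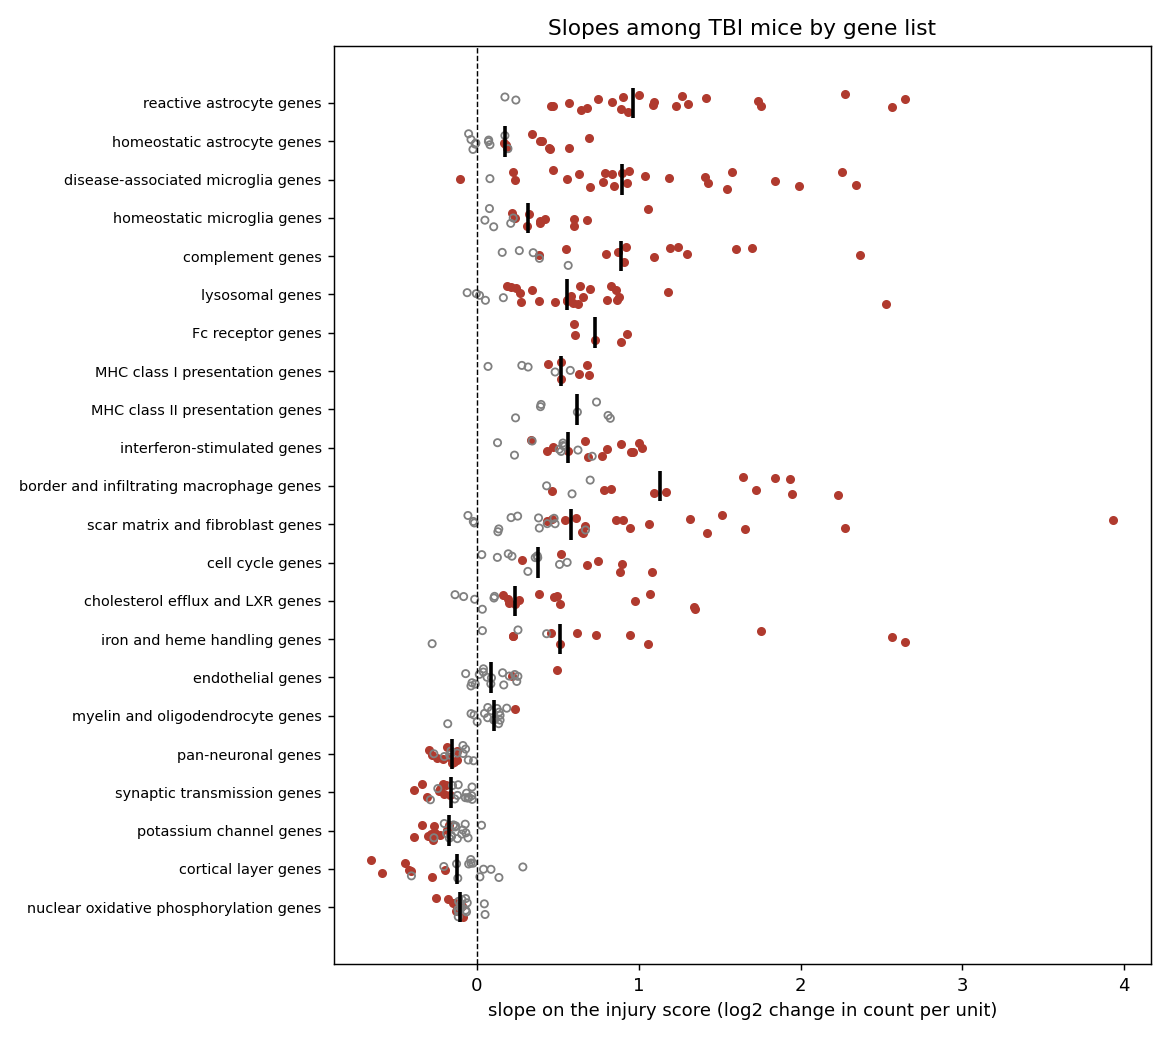
Slope on the injury score among the 29 TBI mice (x axis, log2 change in count per unit of score) of each gene of 22 lists, filled where the edgeR adjusted p was under 0.05, with a bar at the median of each list and a dashed line at 0. Glial, lysosomal and macrophage lists sit to the right, most neuronal genes lie left of 0, and endothelial and myelin lists straddle 0.

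Of 18 endothelial genes 2 rose (12.9% of all genes rose), Vwf (0.49 ± 0.15) and the glucose transporter gene Slc2a1 (0.22 ± 0.07). Without E4/Abca1+/+ TBI replicate 6 or E3/Abca1+/+ TBI replicate 8 the count was 0, without E4/Abca1+/+ TBI replicate 4 it was 1, and without E3/Abca1+/+ TBI replicate 7 it was 4. Of 11 genes of pericytes and smooth muscle 1 rose, Anpep (1.02 ± 0.17), and of 17 myelin and oligodendrocyte genes 1 rose, the tight junction gene Cldn11 (0.24 ± 0.06). Of 10 oligodendrocyte precursor genes 5 rose, 3 without E4/Abca1+/+ TBI replicate 6 and 1 with thinned libraries, led by Gpr17, a receptor of committed precursors (0.58 ± 0.07), and Enpp6, a marker of newly forming oligodendrocytes (0.52 ± 0.12).

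Of 596 genes with a log2 fold change of at least 1 between TBI and sham mice, 496 rose with the score (12.9% of all genes rose), 0 fell and 100 did not pass. The 596 genes were chosen as high in the same TBI mice that gave the slopes. A share above that of all genes is therefore partly built in, and the counts are a description. The lowest slopes among these 596 were those of Igkc, Jchain and H2-Oa, a class II gene of B cells, followed by the acute phase gene Saa3, at −0.83, −0.44, −0.19 and −0.04, none past the threshold. Without E4/Abca1+/- TBI replicate 6 they were 1.18, 1.17, 0.51 and 1.97, and Saa3 passed (edgeR adjusted p = 0.000259). The adenosine receptor gene Adora3 of microglia, which was 1.02 higher after TBI on the log2 scale, had a slope of 0.06 ± 0.21.

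The same score was then computed in the 29 sham mice, which the selection had not used. There 53 of 14890 genes (0.356%) were called, 50 higher (0.336%) and 3 lower (0.0201%) by edgeR, and 1220 (8.19%) had an unadjusted p under 0.05. The SD of the centred score was 0.27 in sham and 0.43 in TBI mice, so the numbers of calls are not directly comparable. One E4/Abca1+/- sham mouse (replicate 2) had a centred score of 0.92, and without it 2 genes were higher and 0 lower. The slope itself differed between TBI and sham mice in 128 of 15167 genes (0.844%), 119 with a higher slope in TBI mice (0.785%) and 9 with a lower one (0.0593%), and 2149 (14.2%) had an unadjusted p under 0.05. Chil1, a chitinase-like protein of reactive astrocytes, ran from 14.0 to 264 CPM in TBI mice (median 49.7) and from 6.46 to 13.7 in sham mice (median 7.56). Its slope was 2.70 ± 0.21 among TBI mice and 0.54 ± 0.13 among sham mice, a difference of 2.16 ± 0.35 (edgeR adjusted p = 0.000952). Ctsb ran from 791 to 1741 CPM against 614 to 841, with a difference of slopes of 0.47 ± 0.07. Differences were also found for Gpx3, a secreted glutathione peroxidase (1.30 ± 0.23), Anxa5 (0.60 ± 0.10), Cnn3 (0.55 ± 0.09) and Abca1 (0.74 ± 0.15). The 28 lysosomal genes held 13 such genes, the most of any list.

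In E4/Abca1+/- sham replicate 2, C3 had 33.5 CPM against a sham median of 0.638 CPM, Clec7a 9.37 against 0.374 and Itgax, an integrin of activated microglia, 6.43 against 0.442. The difference of slopes was −2.04 ± 0.47 for C3, −2.23 ± 0.38 for Clec7a and −1.98 ± 0.37 for Itgax. These 3 slopes were steeper in sham than in TBI mice. Without this sham mouse the difference was 0.17, −1.91 and −0.84, and none of the 3 passed in edgeR (adjusted p = 0.974, 0.227 and 0.581), while 234 genes had a higher and 60 a lower slope in TBI than in sham mice. Smaller differences in the same direction were found for the lipid hydrolase gene Nceh1 (−0.25 ± 0.06) and the autophagy gene Uvrag (−0.36 ± 0.09), which both fell with the score among TBI mice.

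**Figure D5:**
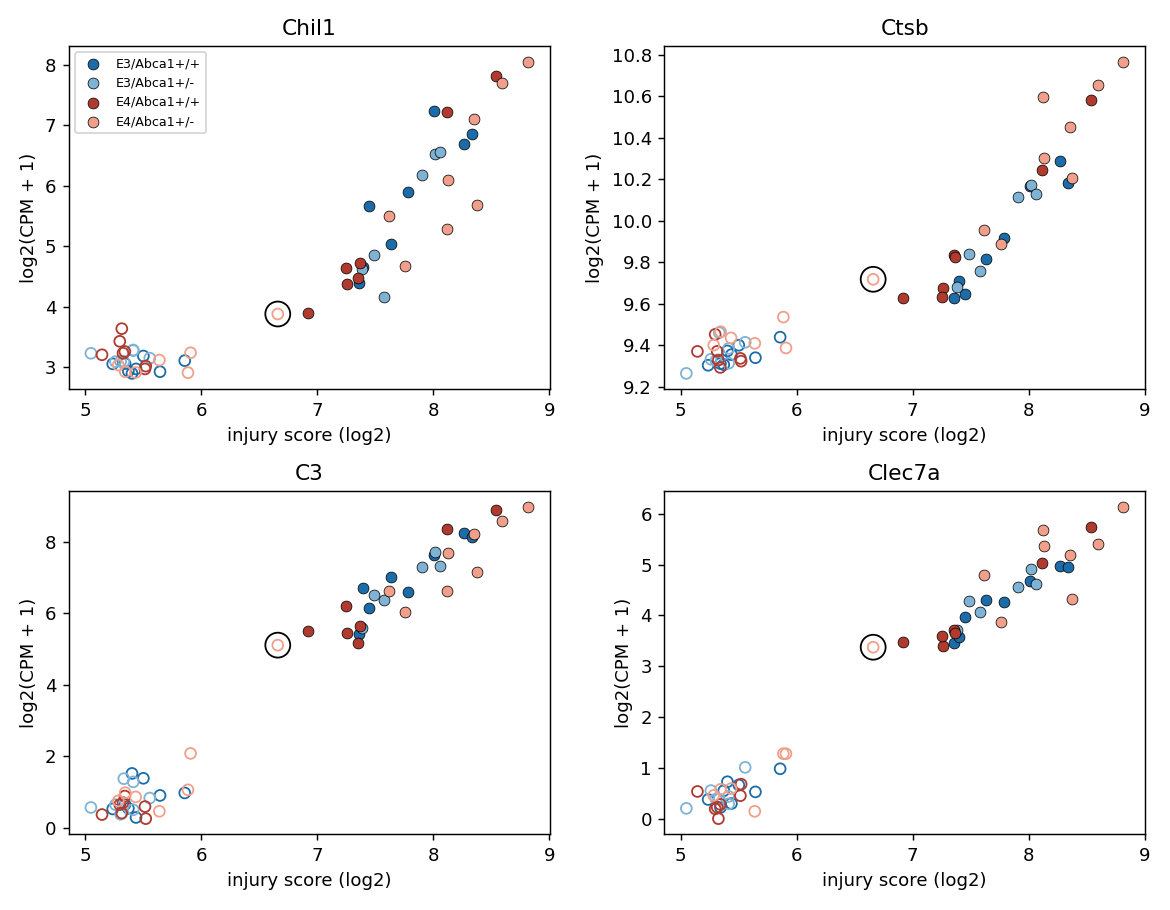
Log2(CPM + 1) of Chil1, Ctsb, C3 and Clec7a against the uncentred injury score in all 58 mice, with TBI mice filled and sham mice open, and a ring around E4/Abca1+/- sham replicate 2. Chil1 and Ctsb climb mainly among TBI mice, and among the sham mice the ringed one stands apart for C3 (33.5 CPM) and Clec7a (9.37 CPM).

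The slopes were not shown to depend on genotype. The test of a different slope among the 4 genotypes called 0 of 15134 genes (0.00%; edgeR's quasi-likelihood test), with 1086 genes (7.18%) at an unadjusted p under 0.05 and 0 called by limma. Fitted alone, the genotypes called 489 (E3/Abca1+/+), 30 (E3/Abca1+/-), 1240 (E4/Abca1+/+) and 113 (E4/Abca1+/-) genes, with 6 to 8 mice each. The median slope of the reactive astrocyte genes was 0.96, 0.79, 0.90 and 1.25 in the same order. Other lists varied more. The median was 1.55, 1.67, 0.98 and −0.27 for the MHC class II genes. For the choroid plexus and meningeal genes it was 1.31, −1.22, 1.20 and 1.10. Differences of list medians among genotypes were not tested, and so few mice per genotype leave a difference of slopes hard to detect.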

How the data were processed

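RNA of 58 mice was sequenced, and per the labels and the submitters' processing notes the authors aligned reads to mm10 with Subread 1.5.0 and counted them per gene with featureCounts. The deposited values are raw counts per gene. Strand and annotation were not given in the sources used here. The table was already filtered by the authors, since its lowest row total was 225 counts. After removal of 2 blank lines and repair of 23 symbols from their gene identifiers, 15171 genes were left. Mice were grouped by genotype and treatment as labelled, and no label gave a replicate number, so replicates only name mice. P-values measure the spread between mice.

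The slope of each gene on the injury score was tested among the 29 TBI mice with edgeR 4.0.16 (R 4.3.3), using TMM normalization (factors 0.954 to 1.04), edgeR's filter on low counts, genotype terms and the quasi-likelihood test. P-values were adjusted by Benjamini-Hochberg over all genes tested, and a gene was called at an adjusted p under 0.05. SE is the slope divided by the root of the F statistic. The sham slope, the difference of slopes (58 mice), the difference among genotypes and the effect of TBI were fitted in the same way. Alternatives used limma 3.58.1, DESeq2 1.42.0, other scores, filters, covariates, thinned libraries and left-out mice. Relations of the score to library measures and its difference by sex used 100000 permutations within genotype. Differences of the score by genotype used an exact permutation test. The fits of the TBI slope, the difference of slopes (58 mice) and the effect of TBI were tested on simulated data. Of 100 genes given a size of 0.5 on the log2 scale, 80, 59 and 95 were called in that order. The sham slope and the difference among genotypes were not tested in this way. Named genes were the 4 score genes, those with the 10 smallest p-values and the 10 largest slopes (mean of at least 1 CPM) in each direction, the 10 lowest slopes among genes with a log2 fold change of at least 1 after TBI, the 5 smallest p-values in each direction for the difference of slopes, and members of the gene lists. Not all genes that the rule selects are printed, among them unnamed transcripts, and some items are not reported here. The members, the score and the lists were chosen with earlier results of these data known, and 2 alternatives (without the 2 mice farthest from the median score, and with the hippocampal and cortical layer means) were added after seeing the data. Promoters came from RefSeq (GRCm38.p6).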

Additional observations from a re-analysis of the deposited data

Results flagged for a closer look

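In 96 groups of values for the score, its 4 genes and 7 other genes, 14 values stood far from the rest of their group. The cut-off flags about 1 in 20 groups of normally distributed values. The same mice were examined for each measure, the measures are related, and gene values were CPM without a log. The 14 can therefore not be set against that rate. E4/Abca1+/- sham replicate 2 stood above its group for Vim (84.7 CPM), C4b (89.6 CPM), Cd68 (19.0 CPM), A2m (27.9 CPM), Lcn2 (16.1 CPM) and Lyz2 (55.8 CPM). E3/Abca1+/+ sham replicate 8 stood above its group for C4b (60.4 CPM) and Lcn2 (1.79 CPM). E4/Abca1+/+ TBI replicate 6, the mouse with the highest centred score, stood apart for A2m (349 CPM) and Igkc (11.5 CPM). E4/Abca1+/- TBI replicate 6 stood apart for Cd74 (193 CPM) and Igkc (250 CPM), and E3/Abca1+/- sham replicate 6 for Igkc (2.48 CPM). E4/Abca1+/- sham replicate 1 stood above its group for Cds1 (163 CPM).

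The slope differed between TBI and sham mice by the edgeR test of the difference itself for Chil1 (2.16), Ctsb (0.47), Gpx3 (1.30), Anxa5 (0.60), Cnn3 (0.55) and Abca1 (0.74), all steeper in TBI mice. It was lower in TBI mice for C3 (−2.04), Clec7a (−2.23), Itgax (−1.98), Nceh1 (−0.25) and Uvrag (−0.36). Without E4/Abca1+/- sham replicate 2, the differences of C3, Clec7a and Itgax did not pass.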

How the results depend on the processing

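Of 1947 genes higher and 1471 lower with the score among TBI mice, the counts stayed within 1.5 times under other scores, filters, normalizations and tools. Of the genes called, 67.3% were higher by limma and 57.0% in the edgeR fit reported. The counts fell to 832 and 560 with libraries thinned to the lowest total, 852 and 254 in females alone, 411 and 91 in males alone, 913 and 181 with the hippocampal and cortical layer means added, and 413 and 76 (E3/Abca1+/+), 27 and 3 (E3/Abca1+/-), 931 and 309 (E4/Abca1+/+) and 109 and 4 (E4/Abca1+/-) by genotype, where fewer mice were fitted. Without the 2 mice farthest from the median score 663 were lower, and 2449 at an unadjusted p under 0.05. Leaving out 1 TBI mouse gave 1647 to 2035 higher and 877 to 1605 lower, both lowest without E4/Abca1+/+ TBI replicate 6. Among sham mice, 589 were higher and 631 lower at an unadjusted p, 0 lower by limma, and 2 higher and 0 lower without the highest-scoring sham mouse. The slopes differed between TBI and sham mice in 1455 (higher) and 694 (lower) genes at an unadjusted p, 240 higher by limma, and 234 and 60 without that mouse. Among genotypes, 1086 differed at an unadjusted p. The difference of females and males was 0.28 without Cd68 in the score. Within genotypes, r moved to 0.50 (blood), −0.11 (choroid plexus), −0.45 (log2 total), −0.88 (mitochondrial) and 0.30 (genes with a count) in E3/Abca1+/-, −0.64 (hippocampal) and 0.28 (genes with a count) in E3/Abca1+/+, and −0.89 (cortical layer) and −0.45 (log2 total) in E4/Abca1+/+ mice. No paired analysis was possible because the labels give no replicate numbers. The cause of these changes was not tested.

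Single slopes changed sign for genes that had not passed and, in E3/Abca1+/- mice alone, also for genes that had. Those that had passed among all TBI mice were Cldn11, Enpp2, F5, Folr1, Gad1, Ighg2c, Prlr and Tmem72. In E3/Abca1+/- mice alone the slopes were Adora3 −0.47, Cldn11 −0.063, Enpp2 −1.82, F5 −5.57, Folr1 −4.41, Gad1 0.0061, Ighg2c 1.17, Igkc 4.45, Jchain 4.07, Prlr −1.22, Saa3 1.69, Slc1a2 0.097, Tmem72 −5.22 and Ttr −13.06. In E3/Abca1+/+ alone they were Adora3 −0.13, H2-Oa 0.90 and Saa3 1.79, in E4/Abca1+/+ alone Cd163 −0.29, H2-Oa 0.42, Igkc 1.26, Jchain 1.00 and Saa3 2.87, and in E4/Abca1+/- alone Cd74 −0.83, P2ry12 −0.11 and Slc1a2 0.075. Females alone gave Igkc 2.14, Jchain 1.73, P2ry12 −0.022 and Saa3 1.31, and males alone Cd74 −0.67. By limma the slopes were H2-Oa 0.013, Igkc 0.62, Jchain 0.42 and Saa3 0.41, and by DESeq2 Jchain 0.11 and Saa3 1.07. With log2 total counts they were Igkc 0.58, Jchain 0.57 and Saa3 0.73, and without genotype terms H2-Oa 0.26, Igkc 0.044, Jchain 0.44 and Saa3 0.82. With sex they were H2-Oa 0.11 and Saa3 0.20, and without the 2 farthest mice H2-Oa 0.12 and Slc1a2 0.013. Saa3 had 0.24 with the hippocampal mean, 0.056 with both means, 0.060 for C4b and Cd68 only, 0.15 without Cd68, 0.15 without Gfap and 0.0041 with standardized score genes. Leaving out 1 mouse gave −0.0088 to 0.19 for Adora3, −0.41 to 0.51 for H2-Oa, −1.36 to 1.18 for Igkc, −0.79 to 1.17 for Jchain, −0.48 to 1.97 for Saa3 and −0.070 to 0.029 for Slc1a2. The difference of slopes of C3 was 0.035 by limma and 0.17 without the highest-scoring sham mouse.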
